A study of Rattus norvegicus with 24 samples.

Results

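The genes described here are 8 liver-enriched transcription factors: Hnf4a, the CCAAT/enhancer binding proteins Cebpa and Cebpb, the forkhead factors Foxa1, Foxa2 and Foxa3, Onecut1 (also called HNF6) and Prox1. They were taken by gene symbol, through probe sets that carry only that symbol. All 8 were measured, by 16 of the 20826 probe sets with 1 symbol, among 14217 genes. Hnf4a had 3 probe sets, Cebpa 5, Onecut1 and Prox1 2 each, and the others 1, and each gene was read by its probe set with the highest mean over all arrays.

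The cells were primary rat hepatocytes, kept either in a collagen sandwich, between a lower and an upper gel of type I collagen, or as a confluent monolayer on the lower gel only. RNA was taken 1, 2, 3 and 8 days after the upper gel was added to the sandwiches, with 3 Affymetrix arrays per culture and day, 8 groups and 24 arrays in all. Both cultures had the same medium with serum, penicillin, streptomycin, epidermal growth factor, insulin, glucagon and hydrocortisone, and the labels call the sandwich a stable control and the monolayer an unstable one. Strain, sex and the number of animals are not given in the sources used here, nor is whether replicates came from separate animals or cultures. The p-values therefore measure the spread between these arrays, which may be technical.

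These factors bind the promoters and enhancers of genes that hepatocytes switch on, and several bind the genes of one another. HNF4A is a nuclear receptor that keeps up the expression of apolipoproteins, clotting factors and bile acid enzymes in hepatocytes. Its gene is read from an upstream and a downstream promoter whose use changes as liver matures. C/EBP alpha holds hepatocytes in a resting, metabolically active state, whereas C/EBP beta serves the acute phase response and regeneration. FOXA proteins open compacted chromatin at liver enhancers, ONECUT1 acts in hepatocyte and bile duct development, and PROX1 is needed for hepatoblast migration in mice and is also a master factor of lymphatic endothelium.

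The promoter windows of Hnf4a, Cebpa, Cebpb and Foxa2 are shown because Hnf4a, Cebpa and Cebpb were higher and Foxa2 was lower in sandwich cultures, as described further on. The windows come from RefSeq on the rat assembly GRCr8, run from 250 bases before to 50 bases after an annotated transcript start, and are written 5′ to 3′ on the strand of the gene. Entries were found for 5 of the 8 factors, in 6 windows. Foxa3, at chr1:87799436-87799735 on the minus strand, is described but not printed, and Foxa1, Onecut1 and Prox1 are named only. Capitals mark every match to the letters searched, which are spelled out after the sequences.
Hnf4a, upstream window, chr3:172605970-172606269, plus strand: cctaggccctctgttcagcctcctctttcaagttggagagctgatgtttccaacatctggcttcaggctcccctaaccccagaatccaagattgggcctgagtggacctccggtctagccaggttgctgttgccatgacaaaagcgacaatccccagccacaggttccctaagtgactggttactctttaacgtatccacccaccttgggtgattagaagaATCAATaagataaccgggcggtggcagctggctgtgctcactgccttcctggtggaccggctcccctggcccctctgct
Hnf4a, downstream window, chr3:172641586-172641885, plus strand: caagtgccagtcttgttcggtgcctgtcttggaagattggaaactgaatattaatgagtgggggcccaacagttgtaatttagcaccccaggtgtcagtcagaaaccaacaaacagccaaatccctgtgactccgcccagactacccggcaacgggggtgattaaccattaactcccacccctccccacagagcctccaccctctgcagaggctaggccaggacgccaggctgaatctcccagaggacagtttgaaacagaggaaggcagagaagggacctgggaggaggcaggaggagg
Cebpa, chr1:96896334-96896633, plus strand: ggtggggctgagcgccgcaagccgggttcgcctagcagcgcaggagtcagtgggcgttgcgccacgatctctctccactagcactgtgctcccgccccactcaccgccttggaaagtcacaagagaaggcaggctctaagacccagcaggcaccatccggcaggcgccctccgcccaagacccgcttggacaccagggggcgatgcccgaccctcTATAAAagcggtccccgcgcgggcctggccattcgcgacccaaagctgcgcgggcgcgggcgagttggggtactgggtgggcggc
Cebpb, chr3:176816755-176817054, plus strand: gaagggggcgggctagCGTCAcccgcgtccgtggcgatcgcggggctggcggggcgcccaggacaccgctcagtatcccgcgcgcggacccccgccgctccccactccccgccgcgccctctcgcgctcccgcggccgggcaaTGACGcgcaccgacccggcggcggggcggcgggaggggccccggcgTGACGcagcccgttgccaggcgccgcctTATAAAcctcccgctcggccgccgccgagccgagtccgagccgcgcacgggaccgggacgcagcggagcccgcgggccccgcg
Foxa2, chr3:155927459-155927758, minus strand: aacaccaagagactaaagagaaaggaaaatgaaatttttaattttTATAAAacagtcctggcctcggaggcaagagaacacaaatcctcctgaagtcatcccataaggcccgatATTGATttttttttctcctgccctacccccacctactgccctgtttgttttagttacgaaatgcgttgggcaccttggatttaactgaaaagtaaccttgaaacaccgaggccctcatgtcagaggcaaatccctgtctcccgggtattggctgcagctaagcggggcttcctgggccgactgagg

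The upstream Hnf4a window held 1 HNF6 core, searched as ATCAAT on either strand, 29 bases before the start. Such a core was found in 8.06% of all 33469 windows of this length. The downstream Hnf4a window held no match to the letters searched. The Foxa2 window also had an HNF6 core, on the opposite strand 136 bases before the start. Cebpb had 3 matches to TGACG, the core of a cyclic AMP response element, on either strand at 234, 107 and 61 bases before the start, and 21.2% of all windows held that core. TATA boxes, searched as TATAAA on the strand of the gene only, stood 33 bases before the start of Cebpb, 35 before that of Cebpa, 82 before that of Foxa3 and 205 before that of Foxa2, and 8.8% of all windows held one. No match overlapped another. G and C made up 81% of the Cebpb window, 70.3% of the Foxa3 window, 68.7% of the Cebpa window, 55.3% of each Hnf4a window and 46.7% of the Foxa2 window, against a median of 51.7% over all windows. A forkhead core in the letters TGTTTAC, present in 3.78% of all windows, was found in none of the 6. Nor was a C/EBP site in the letters TTGCNNAA, present in 10.6%, or an HNF4 site in the letters CAAAGTCCA, present in 0.391%, all searched on either strand. These matches describe letters only, and binding was not measured.

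Levels are deposited log2 probe set values. Differences have the monolayer, or day 1, subtracted, are on the log2 scale and carry the model's standard error (SE), and a gene was called when limma's p, adjusted by Benjamini-Hochberg over 31042 probe sets, was under 0.05, two-sided. Values ran from 2.61 to 15.07 with a median of 5.63 over all probe sets, levels of different probe sets cannot be compared with each other, and 3 arrays per group limit the precision. The mean level of 5 hepatocyte markers was 13.02 to 13.13, 13.65 to 13.70, 13.78 to 13.88 and 13.91 to 13.98 in sandwich arrays at days 1, 2, 3 and 8. In monolayer arrays it was 12.89 to 12.96, 13.41 to 13.42, 13.49 to 13.52 and 13.06 to 13.37, below the sandwich arrays on each day. Of these markers 1, 2, 3 and 4 were called higher in sandwich on these days and 0 lower, beside 117, 402, 1554 and 2215 of all 14217 genes called higher. All 6 endothelial, 3 lymphatic endothelial and 4 leukocyte markers measured had mean levels below the median of all probe sets. Of 8 macrophage markers, 3 of them (Cd163, Csf1r and Adgre1) below that median, 7 were called higher in sandwich at day 3, with a mean of 6.46 to 6.55 in sandwich and 5.88 to 5.93 in monolayer arrays, and 0 at day 1 or day 2. At day 8, 0 macrophage markers were called higher and 1 lower, with means of 6.13 to 6.34 in sandwich and 6.22 to 6.42 in monolayer arrays. The mean of 8 stellate cell markers was 5.74 to 5.88 in sandwich and 5.91 to 5.99 in monolayer arrays at day 3, with 1 called higher and 1 lower. At day 8 the stellate mean was 6.09 to 6.43 in sandwich and 6.18 to 6.37 in monolayer arrays. The mean of 6 bile duct markers at day 8 was 5.87 to 6.04 in sandwich and 7.0 to 7.06 in monolayer arrays, and it was 5.56 to 5.77 in every other group. Of these 6, the keratins Krt19 and Krt7 were the 2 called lower in sandwich at day 8. For Krt19 the levels were 4.78 ± 0.23 in sandwich and 7.97 ± 0.17 in monolayer cultures, and for Krt7 they were 4.01 ± 0.26 in sandwich and 7.23 ± 0.33 in monolayer cultures (SD, n = 3 each). The gap between the 3′ and 5′ control probe sets of beta-actin (3′ minus 5′), a sign of RNA or labelling quality, had group means of 0.94 to 1.03 in sandwich and 0.79 to 0.86 in monolayer cultures. The part of these markers and of RNA quality in the differences below was not tested, except where a fit with the beta-actin difference as a covariate is given. In such bulk RNA, fewer cells of a type and less RNA per cell cannot be told apart.

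The factors split by direction. Hnf4a, Cebpa, Cebpb and Foxa3 were higher in sandwich than in monolayer cultures on at least 1 day, Foxa2 and Onecut1 were lower, and Foxa1 and Prox1 were called on no day. At day 1, 1 of the 8 factors was called higher and 0 lower, against 0.573% of all probe sets called higher and 1.20% called lower. That background was 178 probe sets higher and 374 lower, and it was 257 higher and 335 lower after quantile normalization of the arrays. At day 2, 2 were higher and 2 lower, against 1.87% and 3.96% of all probe sets. At day 3, 4 were higher and 2 lower, against 7.70% and 8.84%, and at day 8, 3 were higher and 2 lower, against 11.9% and 15.6%. The median difference over the 8 factors was 0.32, 0.19, 0.41 and 0.42 at days 1, 2, 3 and 8, beside medians of -0.01, 0.01, 0.01 and 0.00 over all genes. The called differences between cultures ranged in size from 1.32-fold, for Foxa2 at day 2, to 2.12-fold, for Cebpa at day 3. All sandwich arrays lay above all monolayer arrays for 3, 2, 4 and 3 factors at days 1, 2, 3 and 8, and below them for 1, 2, 2 and 1. The arrays of the 2 cultures likewise stood apart, in either direction, for 17.6%, 19.2%, 29.1% and 37.6% of all probe sets on these days.

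**Figure D1:**
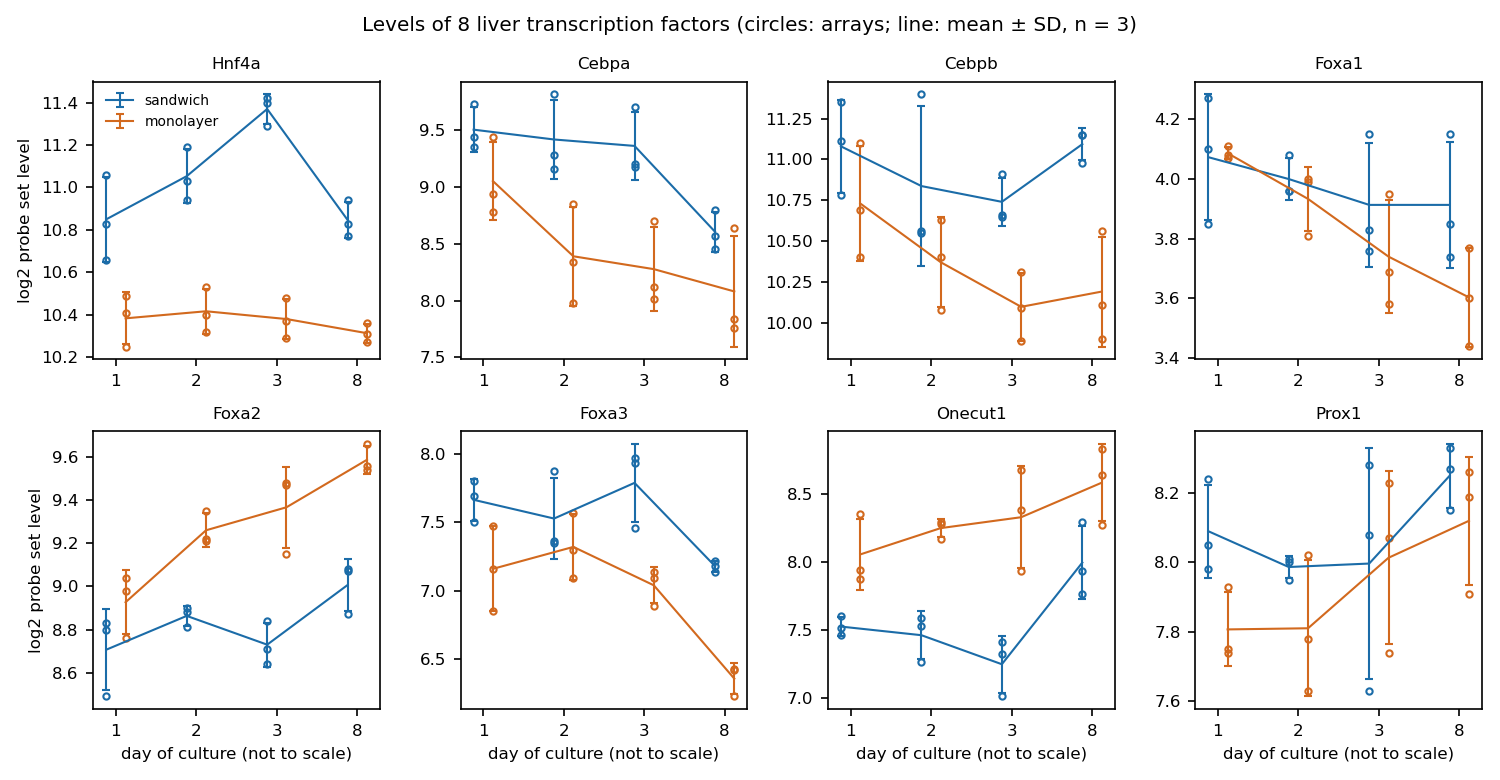
Log2 probe set levels of the 8 factors by day (not to scale), with sandwich in blue and monolayer in orange; circles are arrays and lines join means ± SD (n = 3). Sandwich arrays of Hnf4a stood above monolayer arrays on each of the 4 days, and Foxa2 at days 2, 3 and 8 and Onecut1 at days 1, 2 and 3 showed the reverse.

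Hnf4a was the factor called higher in sandwich cultures on all 4 days. At day 1 its levels in replicates 1, 2 and 3 were 10.83, 10.66 and 11.06 in sandwich, against 10.41, 10.49 and 10.25 in monolayer cultures. At day 2 they were 11.19, 10.94 and 11.03 in sandwich and 10.53, 10.32 and 10.40 in monolayer cultures. On both days the lowest sandwich array stood above the highest monolayer array. At day 3 the levels were 11.40, 11.42 and 11.29 in sandwich and 10.37, 10.29 and 10.48 in monolayer cultures, and at day 8 they were 10.83, 10.94 and 10.77 in sandwich and 10.31, 10.36 and 10.27 in monolayer cultures. The groups again did not overlap, and the day 3 sandwich arrays were the highest of the 24. The difference was 0.46 at day 1 (SE 0.10, 1.38-fold, limma adjusted p = 0.0111), 0.64 at day 2 (1.55-fold, adjusted p = 0.000118), 0.99 at day 3 (1.99-fold, adjusted p = 4.26e-08) and 0.54 at day 8 (1.45-fold, adjusted p = 0.000150). The day 1 call was lost without sandwich day 1 replicate 3 (0.36, adjusted p = 0.0888) and without monolayer day 1 replicate 3 (0.40, adjusted p = 0.0915), and also with the mean of the 3 probe sets (0.34, adjusted p = 0.156) and with only the day 1 groups in the fit (adjusted p = 0.0980).

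In order of level, sandwich day 3 (11.37 ± 0.07, SD, n = 3) stood clear of sandwich day 2 (11.05 ± 0.13), which overlapped sandwich day 8 (10.85 ± 0.09) and day 1 (10.85 ± 0.20). Below these came the 4 monolayer groups, at 10.31 to 10.42, each overlapping its neighbour. Hnf4a was the one factor whose culture difference was called as changing with day, by the moderated F test of the culture by day interaction (F = 5.53, adjusted p = 0.0366), against 14.9% of all probe sets called. That call rested on few arrays and on this probe set. It was lost in 14 of 33 alternative settings, 11 of them the omission of a single array, namely monolayer day 1 replicate 1 or 2, day 3 replicate 1 or 2 or day 8 replicate 2, or sandwich day 1 replicate 1 or 2, day 3 replicate 1 or 2 or day 8 replicate 1 or 3, with adjusted p between 0.0524 and 0.121. It was also lost with arrays centred on their medians (adjusted p = 0.0571) and with the beta-actin difference as a covariate (adjusted p = 0.0660). The other Hnf4a probe sets gave interaction adjusted p of 0.782 and 0.351.

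**Figure D2:**
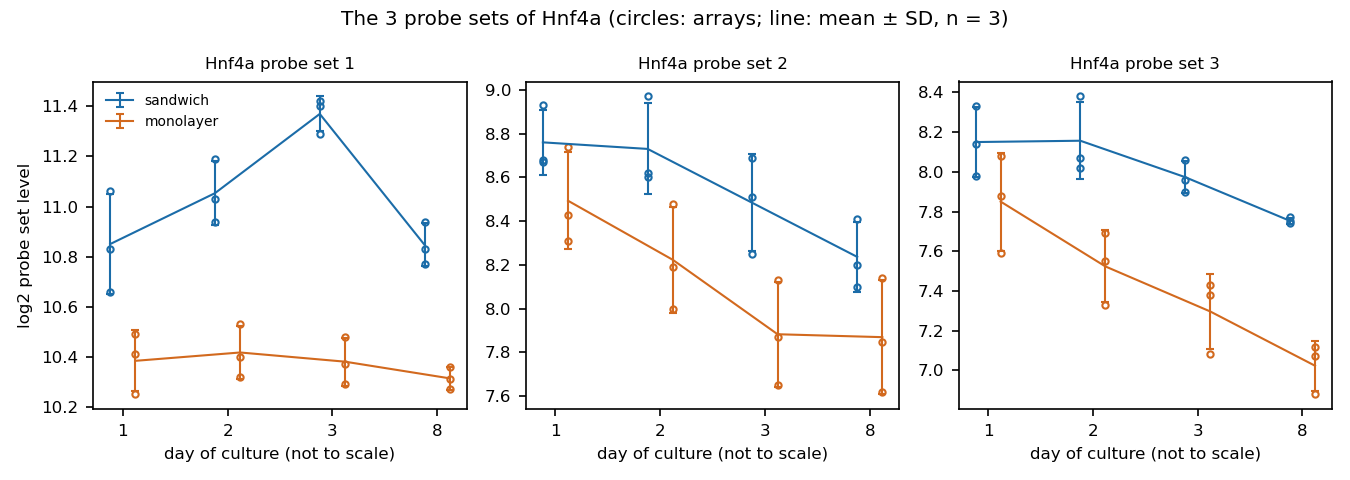
Log2 levels of the 3 Hnf4a probe sets by day (not to scale), sandwich in blue and monolayer in orange; circles are arrays and lines join means ± SD (n = 3). Sandwich means were higher for each probe set on each day, but at day 8 probe sets 2 and 3 had fallen below day 1 in both cultures while probe set 1 had not.

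The 3 Hnf4a probe sets gave the same direction between cultures and different time courses. For the second, the sandwich minus monolayer difference was 0.26, 0.51, 0.60 and 0.37 at days 1, 2, 3 and 8, called at day 3 (adjusted p = 0.00817). For the third it was 0.30, 0.63, 0.68 and 0.73, called at day 2 (adjusted p = 0.00214), day 3 (adjusted p = 0.000337) and day 8 (adjusted p = 7.79e-05). Between day 1 and day 8 the second fell by 0.52 in sandwich (adjusted p = 0.0153) and by 0.62 in monolayer cultures (adjusted p = 0.00296). The third fell by 0.40 in sandwich (adjusted p = 0.0222) and by 0.83 in monolayer cultures (adjusted p = 1.26e-05). The probe set used for Hnf4a differed from day 1 by 0.00 in sandwich and by -0.07 in monolayer cultures at day 8, neither called. Which transcripts each probe set reads was not tested.

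The C/EBP factors were also higher in sandwich cultures, with wider spread between replicates. Cebpa at day 1 was 9.73, 9.35 and 9.44 in sandwich and 9.44, 8.94 and 8.78 in monolayer cultures, with overlap and a difference of 0.45 (SE 0.24, adjusted p = 0.515). At day 2 it was 9.82, 9.28 and 9.16 in sandwich and 8.85, 8.34 and 7.98 in monolayer cultures, and at day 3 it was 9.71, 9.20 and 9.18 in sandwich and 8.70, 8.12 and 8.01 in monolayer cultures. The groups did not overlap on these days, and the differences were 1.03 at day 2 (2.04-fold, adjusted p = 0.00839) and 1.09 at day 3 (2.12-fold, adjusted p = 0.00188). By day 8, at 8.80, 8.57 and 8.45 in sandwich and 8.64, 7.76 and 7.84 in monolayer cultures, the groups overlapped through monolayer replicate 1. The day 8 difference of 0.53 was not called (95% interval 0.03 to 1.03, adjusted p = 0.116), and without that array it was 0.81 (adjusted p = 0.0151). With the replicate number as a block, fitted as effects shared by all 8 groups, the difference of 0.53 was called (SE 0.10, adjusted p = 0.000253). The labels do not say whether same-numbered arrays belong together. The day 2 call was lost without sandwich day 2 replicate 1 (0.83, adjusted p = 0.0757), without monolayer day 2 replicate 3 (0.82, adjusted p = 0.0723) and with the mean of the 5 probe sets (0.91, adjusted p = 0.0981). At day 3 the other 4 Cebpa probe sets differed by 0.97, 0.94, 1.14 and 1.24, and the first 2 of these were called.

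Cebpb was called at days 3 and 8. Its levels were 11.35, 10.78 and 11.11 in sandwich against 11.10, 10.69 and 10.40 in monolayer cultures at day 1, and 11.40, 10.56 and 10.55 against 10.63, 10.40 and 10.08 at day 2, with overlap on both days. The differences there were 0.35 (adjusted p = 0.582) and 0.47 (adjusted p = 0.274). At day 3 the levels were 10.91, 10.65 and 10.66 in sandwich against 10.31, 9.89 and 10.09 in monolayer cultures, and at day 8 they were 11.15, 11.15 and 10.98 against 10.56, 9.90 and 10.11. The groups stood apart on these days, by 0.64 at day 3 (1.56-fold, adjusted p = 0.0346) and 0.90 at day 8 (SE 0.21, 1.87-fold, adjusted p = 0.00159). The day 3 call was lost on leaving out any 1 of the 3 sandwich day 3 arrays (adjusted p = 0.136, 0.0565 and 0.0570 for replicates 1, 2 and 3) or monolayer day 3 replicate 2 (0.147) or 3 (0.0865), and with the beta-actin difference as a covariate it was 0.46 (adjusted p = 0.284). Replicate 1 was the highest of its group for Cebpa in 8 of 8 groups, for Cebpb and Onecut1 in 7 of 8 each, for Foxa1 in 6 of 8 and for each other factor in 1 to 4. Within groups the deviations of Cebpa and Cebpb from their group means had r = 0.89, and over all 24 arrays the levels had r = 0.78, given here as descriptions of arrays that share groups and normalization.

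**Figure D3:**
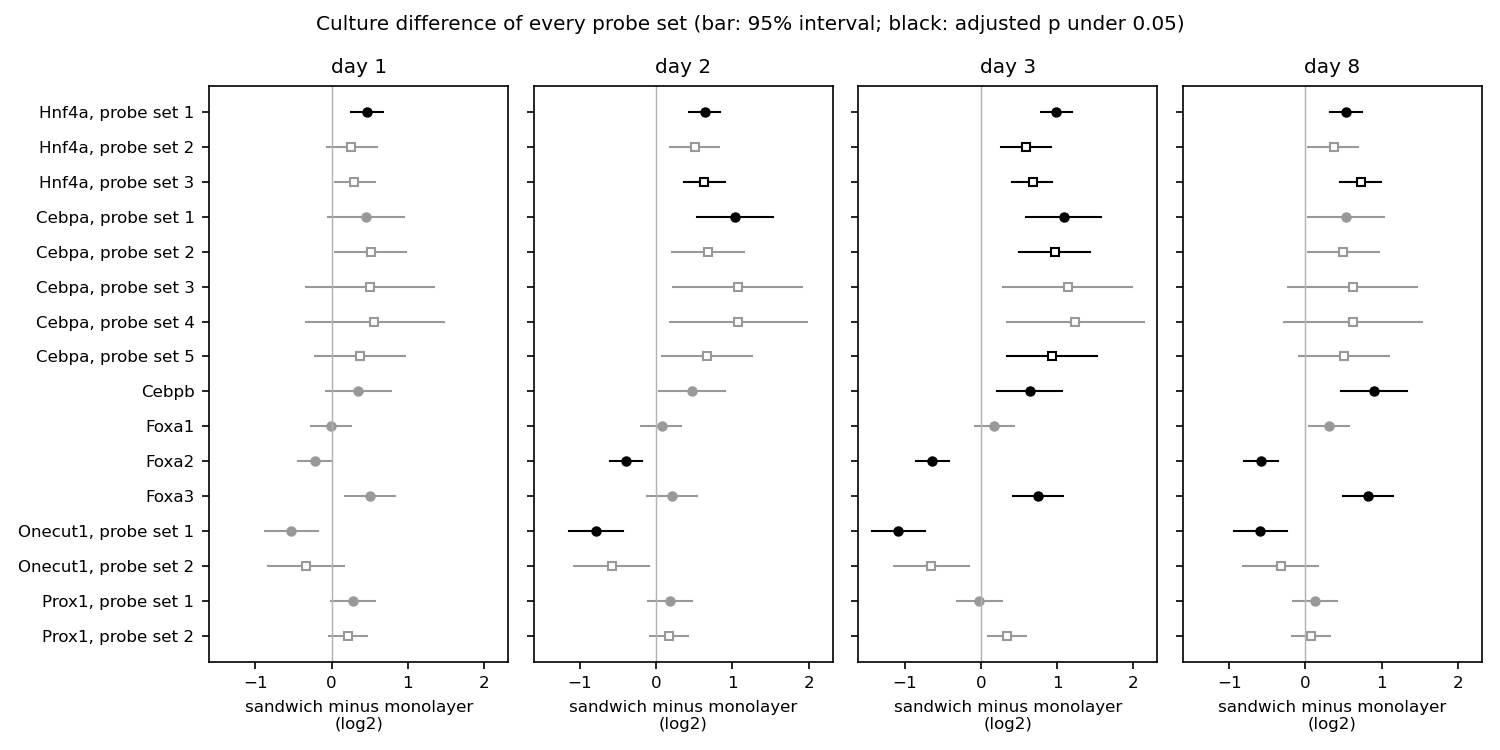
Sandwich minus monolayer differences (log2) of all 16 probe sets at each day, with 95% intervals; filled circles are the probe sets used for the genes, open squares the others, and black marks an adjusted p under 0.05. Every Hnf4a and Cebpa probe set lies right of 0 on each day, and both Onecut1 probe sets lie left of it.

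The FOXA family divided 3 ways. Foxa2, which in mouse liver acts on bile acid genes, was lower in sandwich cultures. At day 2 its levels were 8.90, 8.81 and 8.88 in sandwich and 9.21, 9.22 and 9.35 in monolayer cultures. At day 3 they were 8.64, 8.84 and 8.71 in sandwich and 9.48, 9.15 and 9.47 in monolayer cultures, and at day 8 they were 9.07, 9.08 and 8.87 in sandwich and 9.66, 9.56 and 9.54 in monolayer cultures. All sandwich arrays lay below all monolayer arrays on these 3 days, while at day 1 the levels of 8.80, 8.49 and 8.83 in sandwich and 9.04, 8.98 and 8.76 in monolayer cultures overlapped, with a difference of -0.22 (SE 0.11, adjusted p = 0.447). The differences were -0.40 at day 2 (adjusted p = 0.0223), -0.64 at day 3 (adjusted p = 6.83e-05) and -0.58 at day 8 (adjusted p = 0.000124), which are 1.32-fold, 1.56-fold and 1.49-fold lower. The day 2 call was lost on leaving out any of the 3 sandwich day 2 arrays (adjusted p = 0.0511, 0.101 and 0.0587 for replicates 1, 2 and 3) or monolayer day 2 replicate 3 (0.103). In order of level, monolayer day 8 (9.58 ± 0.06, SD, n = 3) stood above monolayer day 3 without overlap, and sandwich day 1 (8.71 ± 0.19) was lowest.

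Foxa3, which in mice takes part in keeping up blood glucose during fasting, moved the other way. Its levels were 7.46, 7.93 and 7.97 in sandwich and 7.09, 6.89 and 7.14 in monolayer cultures at day 3, and 7.14, 7.22 and 7.18 in sandwich and 6.42, 6.23 and 6.43 in monolayer cultures at day 8. The groups did not overlap, and sandwich was higher by 0.75 at day 3 (1.68-fold, adjusted p = 0.00119) and 0.82 at day 8 (1.77-fold, adjusted p = 0.000253). At day 1 the arrays also stood apart, at 7.69, 7.50 and 7.80 in sandwich and 7.47, 7.16 and 6.85 in monolayer cultures, but the difference of 0.50 (SE 0.16) was not called (adjusted p = 0.137). At day 2 the levels of 7.87, 7.35 and 7.36 in sandwich and 7.57, 7.30 and 7.09 in monolayer cultures overlapped, with a difference of 0.21 (adjusted p = 0.659). Foxa1 lay between 3.44 and 4.27 on all arrays, below the median of all probe sets, where background is unknown, so no fold is given. Its differences were -0.01, 0.07, 0.18 and 0.31 at days 1, 2, 3 and 8 (SE 0.13 each), none called, and the day 8 value (adjusted p = 0.0732) was called without monolayer day 8 replicate 1 (adjusted p = 0.0404) or sandwich day 8 replicate 3 (adjusted p = 0.0383), and with the replicate number as a block (adjusted p = 0.0208).

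Onecut1, like Foxa2, was lower in sandwich cultures. Its levels at day 2 were 7.59, 7.26 and 7.53 in sandwich and 8.29, 8.28 and 8.17 in monolayer cultures, and at day 3 they were 7.01, 7.32 and 7.41 in sandwich and 8.67, 7.93 and 8.38 in monolayer cultures. The groups did not overlap, and the differences were -0.79 at day 2 (1.73-fold lower, adjusted p = 0.00385) and -1.08 at day 3 (SE 0.17, 2.11-fold lower, adjusted p = 3.66e-05). At day 1, with 7.60, 7.46 and 7.51 in sandwich and 8.35, 7.94 and 7.87 in monolayer cultures, the arrays also stood apart, and the difference of -0.53 was not called (adjusted p = 0.140). At day 8 the levels of 8.29, 7.76 and 7.93 in sandwich and 8.83, 8.64 and 8.27 in monolayer cultures overlapped, with a difference of -0.59 (1.50-fold lower, adjusted p = 0.0102). That call was lost without sandwich day 8 replicate 2 (-0.47, adjusted p = 0.0679), without monolayer day 8 replicate 1 (-0.46, adjusted p = 0.0724) and with the mean of the 2 probe sets (-0.46, adjusted p = 0.0876). The second Onecut1 probe set went the same way, by -0.33, -0.58, -0.65 and -0.32 at days 1, 2, 3 and 8, called on no day. Its paralogue Onecut2, also a bile duct and liver development factor, was 8.26 ± 0.22 in sandwich and 9.82 ± 0.25 in monolayer cultures at day 8 (SD, n = 3 each), a difference of -1.56 (SE 0.16, 2.94-fold lower, adjusted p = 1.94e-08). The lower Onecut1, Onecut2 and Foxa2 levels in day 8 sandwiches stood beside the lower Krt7 and Krt19 levels given above. The other 4 of the 6 bile duct markers were not called at day 8. Onecut1, Onecut2 and Foxa2 were also lower in sandwich at day 3, when 1 bile duct marker was called higher and 0 lower. The relation of these levels was not tested.

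Prox1 was called on no day. Its levels were 8.05, 8.24 and 7.98 in sandwich and 7.74, 7.93 and 7.75 in monolayer cultures at day 1, and 8.33, 8.27 and 8.15 in sandwich and 8.19, 8.26 and 7.91 in monolayer cultures at day 8. At day 1 the arrays stood apart, as did those of 17.6% of all probe sets, and at day 8 they overlapped. Levels were 8.00, 8.01 and 7.95 in sandwich and 7.63, 8.02 and 7.78 in monolayer cultures at day 2, and 7.63, 8.28 and 8.08 in sandwich and 8.07, 7.74 and 8.23 in monolayer cultures at day 3, overlapping on both days. The differences were 0.28 at day 1 (SE 0.14, adjusted p = 0.479), 0.18 at day 2 (adjusted p = 0.670), -0.02 at day 3 (adjusted p = 0.970) and 0.13 at day 8 (adjusted p = 0.574). The second Prox1 probe set differed by 0.21, 0.17, 0.35 and 0.08, with none called. The lymphatic endothelial markers, for which Prox1 is a master factor, lay at a mean of 4.18 to 4.60 on every array.

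Within the monolayer, 0 of the 8 factors were called at day 2 against day 1 by limma, where 5.01% of all probe sets were called, and 2 had an unadjusted p under 0.05. These were Foxa2 (0.33, adjusted p = 0.0715) and Cebpa (-0.66, adjusted p = 0.135), which was called with the replicate number as a block (adjusted p = 0.000132). At day 3 against day 1, 1 factor was higher and 2 were lower, against 8.82% and 11.0% of all probe sets. Foxa2 rose by 0.44 (adjusted p = 0.00319), Cebpa fell by 0.78 (adjusted p = 0.0231) and Cebpb fell by 0.63 (adjusted p = 0.0332). At day 8 against day 1, 2 were higher and 3 lower, against 15.0% and 15.8% of all probe sets, which were 4661 higher and 4894 lower, or 3752 and 6154 with each array centred on its median. Foxa2 rose by 0.66 (1.58-fold, adjusted p = 2.06e-05) and Onecut1 by 0.53 (1.44-fold, adjusted p = 0.0191), while Foxa1 fell by 0.48 (adjusted p = 0.00401), Foxa3 by 0.80 (adjusted p = 0.000259) and Cebpa by 0.97 (adjusted p = 0.00261). Cebpb, at -0.54, was not called at day 8 (adjusted p = 0.0544) but was in 9 of 34 alternative settings, and Foxa1, at -0.35, was not called at day 3 (adjusted p = 0.0527) but was in 14 of 33. The day 3 calls of Cebpa and Cebpb were each lost without monolayer day 1 replicate 1 (-0.58, adjusted p = 0.154, and -0.45, adjusted p = 0.211) and without monolayer day 3 replicate 2 (adjusted p = 0.0920 and 0.145) or 3 (adjusted p = 0.124 and 0.0830), and that of Cebpb also without monolayer day 1 replicate 2 (adjusted p = 0.0676). Both day 3 calls were also lost with a trended robust prior, and that of Cebpa with the mean of its probe sets. The day 8 call of Onecut1 was lost without monolayer day 1 replicate 2 (0.0765) or 3 (0.0966) or monolayer day 8 replicate 1 (0.117) or 2 (0.0624), in adjusted p. It was also lost with arrays centred on their medians and with the mean of the 2 probe sets. The second Onecut1 probe set rose by 0.34 and was not called (adjusted p = 0.329). The day 8 fall of Cebpa was -0.79 with the mean of its probe sets (adjusted p = 0.0568). The probe set used for Hnf4a was not called at day 3 (-0.01) or day 8 (-0.07). The other 2 Hnf4a probe sets were called lower at day 3 (-0.61, adjusted p = 0.00580, and -0.55, adjusted p = 0.00243), and at day 8 as given above. With the mean of its probe sets Hnf4a was called lower at day 3 (-0.39, adjusted p = 0.0139) and at day 8 (-0.51, adjusted p = 0.000899).

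Within the sandwich, 0 factors were called at day 2 against day 1 by limma, and 0 had an unadjusted p under 0.05, while 5.81% of all probe sets were called. At day 3, 1 was higher and 0 lower, against 7.40% and 7.43% of all probe sets: Hnf4a rose by 0.52 (1.44-fold, adjusted p = 0.000454), a value that was 0.02 (adjusted p = 0.950) with the mean of its 3 probe sets. At day 8, 2 were higher and 2 lower, against 11.6% and 13.2%. Foxa2 rose by 0.30 (1.23-fold, adjusted p = 0.0402) and Onecut1 by 0.47 (1.38-fold, adjusted p = 0.0451), while Foxa3 fell by 0.48 (1.40-fold, adjusted p = 0.0262) and Cebpa by 0.90 (1.87-fold, adjusted p = 0.00652). These 4 had the same direction as in the monolayer, where they were also called, and each culture was set against its own day 1 arrays. Sandwich and monolayer cultures were also compared in their change to day 8, and this was called for 0 of the 8 factors by limma, where 15.6% of all probe sets were called, and 1, Foxa2, had an unadjusted p under 0.05 (-0.36, SE 0.15, adjusted p = 0.118). The 95% intervals of that difference were wide, such as -0.63 to 0.78 for Cebpa and -0.06 to 1.16 for Cebpb.

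Some of the sandwich changes rested on single arrays. The Onecut1 rise at day 8 was lost in 15 of 34 alternative settings, with adjusted p of 0.244 without sandwich day 8 replicate 1, 0.118, 0.102 and 0.0657 without sandwich day 1 replicates 2, 3 and 1, 0.0700 without sandwich day 8 replicate 3, and 0.0504 to 0.0520 without any 1 of 7 arrays of other groups (monolayer day 1 replicate 2, day 2 replicates 1 and 2, day 3 replicate 3 and day 8 replicate 2, and sandwich day 2 replicate 3 and day 3 replicate 2). The Foxa2 rise was lost without sandwich day 1 replicate 2 (0.19, adjusted p = 0.256) and without sandwich day 8 replicate 1 (0.125) or 2 (0.135), and with the beta-actin difference as a covariate both rises were lost (adjusted p = 0.0681 for Foxa2 and 0.0695 for Onecut1). Both were also lost with arrays centred on their medians. That of Foxa2 was lost as well with array weights and with only the compared groups in the fit, and that of Onecut1 with the mean of its probe sets. The Foxa3 fall was lost without sandwich day 1 replicate 1 (0.0700) or 3 (0.113) or sandwich day 8 replicate 1 (0.0727) or 3 (0.0613), in adjusted p. The Cebpa fall was -0.71 with the mean of its probe sets (adjusted p = 0.103). The second Prox1 probe set fell by 0.36 in sandwich at day 8 (adjusted p = 0.0320), where the one used for the gene differed by 0.16 and was not called. That second probe set had a mean of 5.26 over the arrays, below the median of all probe sets, where background is unknown. The 2 probe sets thus give no settled direction of Prox1 over time.

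Other liver transcription factors were read from a list of 24 genes, 22 of them measured, chosen with earlier results of these data known. Of these, 2 were higher and 0 lower in sandwich cultures at day 1, 0 and 0 at day 2, 6 and 3 at day 3, and 10 and 6 at day 8, with a median difference of 0.07 at day 8. Over all 14217 genes 117, 402, 1554 and 2215 were higher and 249, 831, 1675 and 2943 lower at days 1, 2, 3 and 8, with a median of 0.00 at day 8. Klf15, a glucocorticoid-induced regulator of amino acid breakdown, had the smallest adjusted p at day 8, with 9.10 ± 0.08 in sandwich and 7.52 ± 0.18 in monolayer cultures (a difference of 1.58, SE 0.12, adjusted p = 1.36e-10). Dbp, a clock output factor, was higher at day 8 by 1.39 (SE 0.11), Creb3l3, a liver factor of lipid and acute phase genes, by 1.05 (SE 0.09), and Cebpg, a partner of the C/EBP proteins, by 0.97 (SE 0.09), with adjusted p of 4.85e-10, 1.21e-09 and 2.97e-09. Day 1 differences were -0.22 for Klf15, -0.33 for Dbp, 0.49 for Creb3l3 and -0.01 for Cebpg, and of these only Creb3l3 was called (adjusted p = 0.00289). Of 13 measured coregulators and C/EBP partners, of 15 listed, 1 was higher and 5 were lower at day 8, with a median of -0.13, beside the 2215 higher and 2943 lower of all 14217 genes. Atf4, a stress factor that pairs with C/EBP proteins, was higher by 0.47 (adjusted p = 1.98e-05). The coactivator Ep300 was lower at day 8 by a difference of -0.69, Ddit3, an inhibitor of C/EBP binding, by -0.67, and the corepressor Nrip1 by -0.71, with adjusted p of 4.20e-05, 4.35e-05 and 0.00230. Ddit3 had the other direction earlier. It was called higher in sandwich at day 1 (0.48, adjusted p = 0.0218) and differed by 0.30 and 0.32 at days 2 and 3, not called.

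Genes that textbooks name as targets of these factors were counted by list, and these lists too were chosen with earlier results known. Binding was not measured, and some genes stand on several lists. Of 18 measured HNF4A targets, of 20 listed, 2, 10, 16 and 18 were higher in sandwich at days 1, 2, 3 and 8, and 0 were lower on any of them. For this list and those that follow, the counts over all 14217 genes were 117, 402, 1554 and 2215 higher and 249, 831, 1675 and 2943 lower on these days. Their median difference was 0.14, 0.34, 0.66 and 1.92 at days 1, 2, 3 and 8, beside a median of 0.00 over all genes at day 8. At day 8 Apoa2 was 10.27 ± 0.04 in sandwich and 6.28 ± 0.48 in monolayer cultures, a difference of 3.99 (SE 0.15, 15.9-fold), and Apoa4 was 13.75 ± 0.08 in sandwich and 10.72 ± 0.34 in monolayer cultures, a difference of 3.03 (SE 0.12, 8.19-fold). Both are apolipoproteins of lipid-carrying particles. Cyp8b1, the enzyme that sets the make-up of bile acids, was higher by 2.94 (SE 0.12) and Apoc2, the cofactor of lipoprotein lipase, by 2.88 (SE 0.12). Adjusted p for these 4 lay between 4.94e-16 and 2.63e-15.

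**Figure D4:**
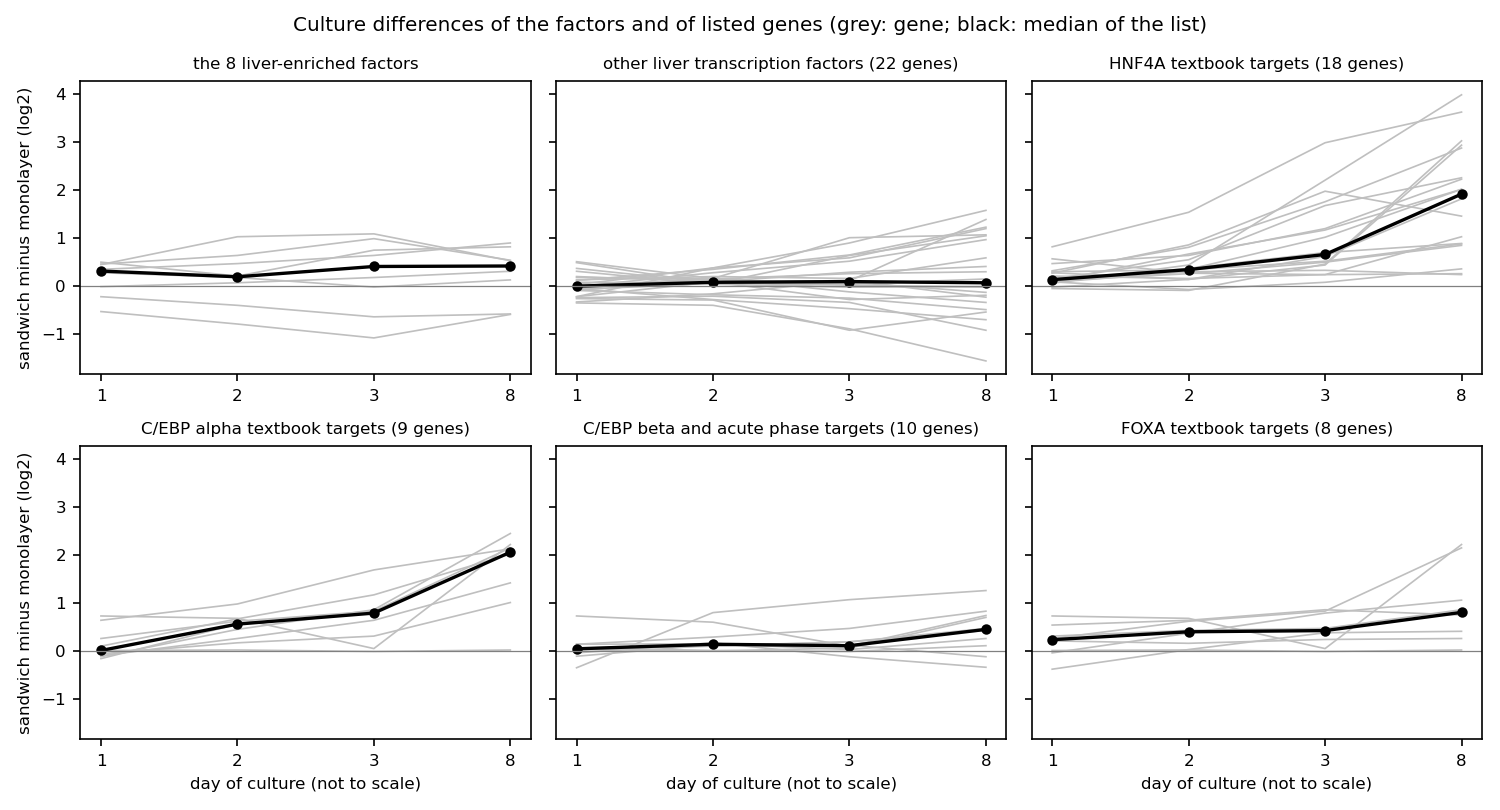
Sandwich minus monolayer differences (log2) by day (not to scale) for the 8 factors and for 5 lists of related genes; grey lines are genes and black points the median of the list. The median of the HNF4A targets stood at 1.92 and that of the C/EBP alpha targets at 2.06 at day 8. On that day Hnf4a itself differed by 0.54 and Cebpa by 0.53 (not called). The median of the 8 factors, which went in both directions, was 0.42.

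Of 9 measured C/EBP alpha targets, of 10 listed, 2, 5, 7 and 8 were higher at days 1, 2, 3 and 8 and 0 lower, with a median of 2.06 at day 8. The urea cycle enzymes Arg1 and Cps1 were higher by 2.13 (SE 0.11) and 2.06 (SE 0.13), the liver glycogen synthase Gys2 by 2.45 (SE 0.14) and the tyrosine breakdown enzyme Tat by 2.15 (SE 0.12), with adjusted p between 1.32e-13 and 6.55e-12. Alb, the gene of serum albumin, which lies near the top of the scale, differed by 0.02 and was the one target not called. Of 10 C/EBP beta and acute phase targets, 1, 3, 2 and 6 were higher at days 1, 2, 3 and 8 and 0 lower, with medians of 0.04, 0.14, 0.11 and 0.45. The C-reactive protein gene Crp was higher at day 8 by 1.26 (SE 0.13), haptoglobin Hp by 0.83 (SE 0.08), lipocalin Lcn2 by 0.70 (SE 0.08) and orosomucoid Orm1 by 0.43 (SE 0.08).

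Of 8 measured FOXA targets, of 11 listed, 2, 5, 6 and 7 were higher at days 1, 2, 3 and 8, with medians of 0.23, 0.40, 0.42 and 0.80. At day 1, 1 of them was called lower, and 0 were lower on the later days. Pck1, the gluconeogenic enzyme, was higher at day 8 by 2.22 (SE 0.16, 4.67-fold), the fetal plasma protein Afp by 1.06 (SE 0.10, 2.09-fold) and the fatty acid import enzyme Cpt1a by 0.86 (SE 0.10, 1.81-fold), with adjusted p of 8.75e-11, 1.34e-08 and 4.51e-07. Of 6 HNF6 targets 3 were measured. Pfkfb1, a liver enzyme that makes and breaks down a fructose bisphosphate regulating glycolysis, was higher by 2.15 (SE 0.11) in day 8 sandwiches, Ttr by 0.26, and Onecut2 was lower as given above.

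The genes whose levels followed each factor most closely were read over the 24 arrays among about 2066 genes whose group means ranged over at least 1. These arrays share groups and normalization, so the Pearson correlations describe the pattern only. For Hnf4a they were Fam210b (0.93), C4bpa (0.92) and Albfm1 (0.92), and for Foxa3 they were Ak4 (0.90), Mlxipl (0.89) and Acsm1 (0.89). For Cebpa they were Srm (0.88), Slc30a1 (0.87) and Slc27a5 (0.87), and for Cebpb they were Zfp36 (0.85), Slc16a6 (0.84) and Fabp1 (0.84). Foxa2 was followed by Tjp1 (0.96), Hs2st1 (0.95) and Sorbs2 (0.94), and Onecut1 by Trak2 (0.96), Basp1 (0.91) and Frmd6 (0.90). For Foxa1 the nearest were Slc6a9 (0.78), Abcb1a (0.78) and Rnf113a2 (0.77). Prox1 had none close, with Egr2 (0.66), Pck1 (0.63) and Gmfb (0.62). Among the factors themselves Foxa2 and Onecut1 ran together over the 24 arrays (r = 0.88, and 0.59 within groups). Hnf4a ran opposite to Onecut1 over the arrays (r = -0.80), but within groups the value was 0.19. Hnf4a and Foxa2 likewise had r = -0.65 over the arrays and 0.66 within groups.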

How the data were processed

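The deposited series table holds log2 values per Affymetrix probe set, made by the authors from biotin-labelled cRNA, and its unit and array medians (5.57 to 5.67) mark it as already normalized between arrays. RMA, a summarization method for Affymetrix arrays, and limma are named in the submitters' processing notes, with no role or version. Of 31099 probe sets, 57 controls were left out and 31042 tested; 20826 had 1 gene symbol, 436 several and 9780 none. No array pair was identical. All 24 arrays entered 1 model, with a mean for each group, in limma 3.58.1 in R 4.3.3 (lmFit, eBayes), and the interaction was tested by a moderated F. No fold is given for a gene whose group mean was under the median probe set level. Sequences came from RefSeq tables on GRCr8.

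Named genes are the 8 factors, the 4 genes of each list with the smallest adjusted p at day 8, and the 3 genes most correlated with each factor. The factors, lists and tests were chosen with earlier results of these data known. Some members of the gene lists are not reported here. Alternatives were quantile normalization, median centring, array weights, a trended robust prior, a filter on low values, fewer groups in the fit, RNA quality and array spread as covariates, the mean of probe sets, a replicate block and leaving out each array. The fit was tested on simulated data. Same-numbered arrays were checked for deviating together. All 3 pairs had r over 0.1 at day 8 between cultures (0.42, 0.12 and 0.25), at monolayer day 2 against day 1 (0.40, 0.13 and 0.40) and at sandwich day 2 against day 1 (0.50, 0.53 and 0.23). In the other comparisons at least 1 pair did not. For the 3 comparisons named, the blocked value is given beside a call it changes. The highest r was 0.53 for same-numbered and 0.50 for different-numbered arrays, and the labels do not say that the numbers match arrays, so the pairing is not settled. The block was fitted as effects shared by all 8 groups.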

Additional observations from a re-analysis of the deposited data

Results flagged for a closer look

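The culture difference of Hnf4a was called as changing with day, by the test of the culture by day interaction (moderated F = 5.53, limma adjusted p = 0.0366). The sandwich minus monolayer difference was 0.46, 0.64, 0.99 and 0.54 at days 1, 2, 3 and 8, with all 3 sandwich arrays above all 3 monolayer arrays on each day. The 2 other Hnf4a probe sets were not called in that test (adjusted p = 0.782 and 0.351). The test called 14.9% of all probe sets, and the call of Hnf4a was lost in 14 of 33 alternative settings, 11 of them the omission of 1 array.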

How the results depend on the processing

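Of 96 member results, each under 33 or 34 alternatives (3244 values), 3107 kept their call or lack of a call, 80 lost the call, 56 gained one and 1 reversed. An uncalled result that changed sign without being called was counted as kept. Foxa1 at day 1 between cultures, for example, was -0.01 and ran from -0.11 to 0.10. The calls of Hnf4a at days 2, 3 and 8, Foxa2, Foxa3 and Cebpa at day 3, Foxa2, Foxa3 and Cebpb at day 8, and Onecut1 at days 2 and 3, all between cultures, held in each alternative run. The reversal was Hnf4a, sandwich day 8 against day 1, with the mean of its probe sets (-0.31, adjusted p = 0.0491, against 0.00). Factors called, where the count moved by over 1.5 times, were as follows. At day 1 between cultures (1 as reported) it was 2 with quantile normalization, 2 with array spread as a covariate, 0 with only the day 1 groups in the fit and 0 with the mean of probe sets. At monolayer day 2 against day 1 (0) it was 1 with quantile normalization, array weights, the filter, the beta-actin covariate or array spread. At sandwich day 3 against day 1 (1) it was 0 with the mean of probe sets, and at sandwich day 8 against day 1 (4) it was 2 with median centring or the beta-actin covariate. The difference in change (0) was 1 with quantile normalization or array spread. The interaction (1) was 2 with quantile normalization, array weights or array spread, and 0 with median centring, the beta-actin covariate or the mean of probe sets. The causes were not tested.

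Leaving out 1 array gave between cultures 0 to 1, 2 to 4, 5 to 6 and 4 to 6 factors at days 1, 2, 3 and 8. In the monolayer it gave 0 to 1, 1 to 4 and 4 to 6 at days 2, 3 and 8 against day 1, and in the sandwich 0 to 0, 1 to 1 and 1 to 4. It gave 0 to 1 for the difference in change and 0 to 2 for the interaction. Over all comparisons 18 of 30 same-numbered pairs correlated over 0.1, and 15 of 24 arrays correlated best with their own number, a hint from the data and not the design. With a replicate block the count was 2 at day 1 between cultures, 1 at monolayer day 2, 1 for the difference in change and 2 for the interaction, and it stayed within 1.5 times for the other comparisons. Calls gained under the block, beside those in the report, were Cebpa at day 1 and Cebpb at day 2 between cultures (adjusted p = 0.0138 and 0.0274), Foxa1 at day 3 and Cebpb at day 8 in the monolayer (0.0121 and 0.00210), Cebpb in the difference in change (0.0383) and Cebpa in the interaction (0.00199), and no call was lost. With array weights all probe sets called were 933, against 552, at day 1 between cultures, 3688, against 1809, at day 2, 3578, against 1556, at monolayer day 2 and 2722, against 1802, at sandwich day 2. The day 1 count was 322 to 366 without any 1 monolayer day 1 array or sandwich day 1 replicate 1 or 2, and the monolayer day 2 count 982 to 1002 without monolayer day 1 replicate 1 or 2 or monolayer day 2 replicate 3. The filter on low values left out Foxa1. Levels near or below the median of all probe sets, as for Foxa1, limit what can be read.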
